A study of Mus musculus with 14 samples.

Results

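The 10 genes described here make, load and switch on the MHC class I molecules that present peptides on the cell surface: the heavy chain genes H2-K1, H2-D1, H2-T23, H2-M3 and H2-Q7, the light chain gene B2m, the transporter genes Tap1 and Tap2, the loading factor gene Tapbp and the transactivator gene Nlrc5. They were taken by symbol from a table of 49315 genes, and all 10 were found in it and passed the filter on low counts. The table holds bulk RNA-seq counts of primary microglia in culture (the macrophages that reside in the brain), with 7 libraries labelled KO and 7 labelled WT. KO stands for mice that lack TIMP2 (tissue inhibitor of metalloproteinases 2) and WT for mice that carry it, both on the C57BL/6 strain and neither given any agent according to the labels. Each library came from forebrains of 5 pups of both sexes, pooled by genotype at postnatal day 6 to 7, and the microglia were positively selected on CD11b beads and cultured in medium with serum before the RNA was taken. A library thus averages over animals and over every cell type left in the dish, and a culture model of neonatal cells stands in for the brain.

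A class I molecule is a heavy chain joined to beta-2-microglobulin, the product of B2m, and folds around a short peptide. Proteasomes cut the peptides, the TAP1 and TAP2 transporter carries them into the endoplasmic reticulum, and tapasin, the product of Tapbp, holds the empty molecule at the transporter until a peptide fits. NLRC5 acts with factors bound at a conserved promoter module, and interferons raise the whole set in most cells, including microglia, which present peptides to CD8 T cells.

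Totals were 38875344 to 48070236 counts per library, which gave the members from 284 counts (H2-Q7 in its lowest library) to 136760 (B2m in its highest). Timp2, the deleted gene, had 120 to 129 CPM (counts scaled to the library's size with TMM factors) in KO and 398 to 495 CPM in WT, so the groups did not overlap and every library matched its label (log2 fold change −1.92, standard error 0.0464, adjusted p = 1.53e-12, edgeR). Microglia markers were abundant, with Csf1r at a mean of 2677 CPM and Cx3cr1 at 1007 CPM, while Tmem119 was low at 4.54 CPM. Of the markers of lymphocytes and neutrophils, Cd3e, Cd3g, Nkg7, Ncr1 and Ly6g had at most 2 counts in any library, so these transcripts were near 0. Astrocyte markers were present at 30.04 to 260 CPM in sum, and their part in the results is described with the covariation of the members.

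Of the 10 members, 8 lie on chromosome 17 in the mouse MHC region. On GRCm38, in the GENCODE annotation, these are H2-K1 at chr17:33996017-34000347 on the minus strand, H2-D1 at chr17:35262730-35267499, Tap1 at chr17:34187553-34197225, Tap2 at chr17:34203527-34216321, Tapbp at chr17:33915899-33929292, H2-M3 at chr17:37270220-37274484 and H2-Q7 at chr17:35439155-35443773 on the plus strand, and H2-T23 at chr17:36029773-36032855 on the minus strand. B2m lies elsewhere, at chr2:122147686-122153083, and so does Nlrc5, at chr8:94434356-94527272, both on the plus strand.

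The RefSeq promoter table of GRCm38.p6 held windows for 8 of the members, each from 250 bases before to 50 bases after the RefSeq start. There was none for Tap2 and Nlrc5. The windows were searched on both strands for the core letters AANNGAAA of interferon regulatory factor sites, for GGGNNNNNCC as a kB-type element, and for TGACG followed by ATTGG at 15 to 30 bases, the X2 and Y cores of the module at which the NLRC5 complex assembles. The spacing was set after these promoters had been seen. The module was in 5 of 8 windows, those of H2-K1, H2-D1, H2-Q7, H2-M3 and B2m, with 19 bases between the cores in H2-Q7 and 20 in the other 4, while 0.575% of all 32851 windows in the table held it. All 5 also held the interferon regulatory factor core, and 0.116% of all windows held both. That core alone was in 6 of 8 windows, the sixth being H2-T23, against 23.9% of all windows. The kB-type element was in 6 of 8, now with Tap1 in place of H2-T23, against 50.8% of all windows, and its matches on the 2 strands can overlap. The Tapbp window held none of the 3. These are letter matches within these windows and say nothing of what was bound. By the GENCODE positions, all 200 bases before the RefSeq start lay inside the gene for H2-D1 and Tapbp, and 154 of them for H2-T23. A lack of matches in the Tapbp and H2-T23 windows thus may not describe the sequence before their GENCODE starts.

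The stretches printed here are those of the genes with the module, since their levels follow each other closely in these libraries. Each starts 200 bases before the RefSeq start and runs 5′ to 3′ to the first annotated exon base. Capitals mark the kB-type element, then the interferon regulatory factor core (on the reverse strand in the heavy chains, where it reads TTTCACTT), then TGACG and ATTGG. In B2m the interferon core comes before the second kB-type element. The H2-D1 window is not printed because GENCODE places an exon of H2-D1 over it. They lie at chr17:34000348-34000547 (minus strand), chr17:35438955-35439154, chr17:37270034-37270219 and chr2:122147487-122147685 (plus strand).
H2-K1: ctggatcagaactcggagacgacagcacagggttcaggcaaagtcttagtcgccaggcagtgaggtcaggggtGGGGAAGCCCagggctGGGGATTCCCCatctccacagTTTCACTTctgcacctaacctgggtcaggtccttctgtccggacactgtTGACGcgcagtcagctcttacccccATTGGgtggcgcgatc
H2-Q7: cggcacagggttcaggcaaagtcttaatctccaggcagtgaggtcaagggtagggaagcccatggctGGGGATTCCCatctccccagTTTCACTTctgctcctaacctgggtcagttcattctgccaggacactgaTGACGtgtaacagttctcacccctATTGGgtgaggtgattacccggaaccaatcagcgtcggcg
H2-M3: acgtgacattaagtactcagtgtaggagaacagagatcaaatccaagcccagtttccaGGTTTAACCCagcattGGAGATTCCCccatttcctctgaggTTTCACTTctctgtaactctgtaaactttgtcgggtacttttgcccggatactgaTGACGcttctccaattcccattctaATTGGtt
B2m: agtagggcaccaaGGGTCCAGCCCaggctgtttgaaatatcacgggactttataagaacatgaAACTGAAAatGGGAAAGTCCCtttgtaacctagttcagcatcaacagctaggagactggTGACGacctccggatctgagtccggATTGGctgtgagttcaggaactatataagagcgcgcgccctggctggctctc

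H2-K1, H2-Q7, H2-M3 and H2-D1 hold the same 8 letters at the interferon core, 90, 113, 101 and 150 bases before their RefSeq starts. B2m holds its own at 137. The printed H2-K1 and H2-Q7 stretches are alike well beyond the marked letters, so their matches are not separate observations.

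Per length of annotated exon, B2m had the highest level of the members and H2-Q7 the lowest. Levels of different genes were compared as CPM per kilobase of exon, and neighbours in the order by a two-sided exact sign-flip test over the 7 WT libraries, adjusted over the 9 neighbour pairs. In WT, B2m had 2959 ± 234 CPM per kilobase (SD, n = 7). The classical heavy chains followed, H2-D1 with 802 ± 114 and H2-K1 with 394 ± 77.3 CPM per kilobase. Next came Tapbp with 110 ± 4.43 and the nonclassical heavy chain H2-T23, which gives Qa-1, with 80.0 ± 12.0 CPM per kilobase.

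The lower part of the order held the transporter and the transactivator. H2-M3, a nonclassical heavy chain known for presenting formylated peptides, had 34.3 ± 5.36 CPM per kilobase in WT, Tap1 28.2 ± 5.32 and Tap2 20.1 ± 1.71. Nlrc5 had 8.20 ± 1.08 and H2-Q7, a Qa-2 heavy chain, 4.65 ± 2.83 CPM per kilobase. Each member stood above the next in 7 of 7 WT libraries, except Nlrc5 over H2-Q7 in 6 of 7. All 9 neighbour pairs passed (adjusted exact p of 0.0176, and of 0.0313 for the last pair), although the ranges over libraries overlapped for Tapbp and H2-T23, for H2-M3 and Tap1, and for Nlrc5 and H2-Q7.

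The order in KO was the same gene by gene, from B2m with 3165 ± 374 CPM per kilobase (SD, n = 7) to H2-Q7 with 7.22 ± 5.11. Of the 9 neighbour pairs 8 passed, and Nlrc5 over H2-Q7 did not (adjusted exact p = 0.0938). With the longest transcript in place of all exons, Tap1 and H2-M3 changed places, so their order depends on the length used. H2-Q7 had 4265 bases of annotated exon and H2-T23 2889, against 1438 in H2-M3. The longest transcripts of H2-Q7 and H2-T23 were nearly as long, at 4209 and 2642 bases. A shorter length would raise these 2 levels and was not tried, so their places hold for the annotated lengths only. In raw share, the 10 members took 0.739% ± 0.104 of all counts in KO and 0.679% ± 0.0785 in WT (SD, n = 7). H2-K1, H2-D1 and B2m held 84.7% to 86.1% of these member counts in every library.

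**Figure D1:**
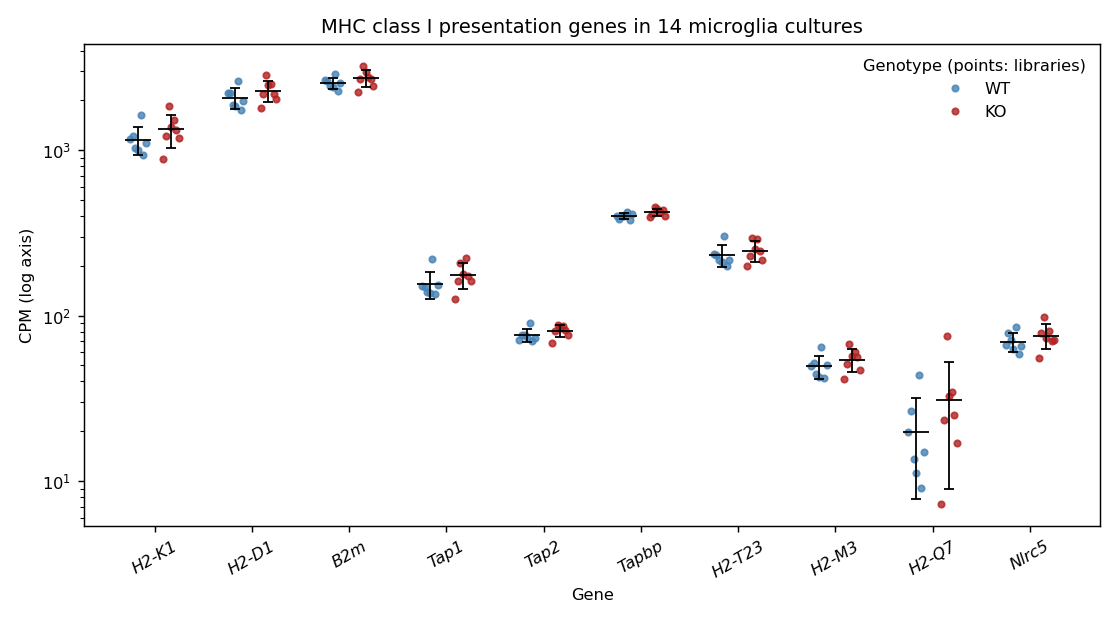
CPM of each of the 10 genes (vertical, log axis) in the 7 WT (blue) and 7 KO (red) libraries, with bars for mean ± SD. The points of KO and WT overlap for every gene, and H2-Q7 is spread most, from 7.25 to 75.5 CPM in KO.

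The main comparison asked whether loss of TIMP2 shifted the class I genes in these cells. All 10 members had a higher fitted level in KO than in WT, by 0.08 to 0.63 on the log2 scale, and none passed the threshold. The share of all 15700 tested genes with a log2 fold change above 0 was 50.8%, and the members, which vary together between libraries, are not 10 separate observations of a direction. The median log2 fold change was 0.13 over the members and 0.0016 over all tested genes. With edgeR's quasi-likelihood test, 0 of 10 were called at an adjusted p under 0.05, where 0.0191% of all tested genes were called in either direction and 0% higher in KO. With unadjusted p under 0.05 in favor of KO there was 1 of 10, against 1.75% of all tested genes, and DESeq2 likewise had 1, with 0 members called after adjustment. In bulk RNA, fewer cells of a type and less RNA per cell cannot be told apart.

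Among the classical heavy chains, which present peptides to CD8 T cells, H2-K1 ranged from 879 CPM through a median of 1315 to 1842 CPM in KO and from 940 through 1111 to 1623 CPM in WT. The KO range enclosed the WT range, with both the lowest and the highest library in KO. KO over WT came to a log2 fold change of 0.20 (standard error 0.145, unadjusted p = 0.184, adjusted p = 0.943, edgeR), and the exact permutation test of the single gene gave p = 0.25.

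H2-D1 spanned 1804, 2193 and 2832 CPM in KO (lowest, median, highest) and 1753, 1968 and 2602 CPM in WT. The groups overlapped nearly throughout, although 6 of 7 KO libraries lay above the WT median. Its log2 fold change was 0.15 (standard error 0.102, edgeR unadjusted p = 0.171, exact permutation p = 0.216).

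B2m, whose product every class I heavy chain needs to reach the cell surface, had 2243, 2699 and 3230 CPM in KO and 2279, 2531 and 2904 CPM in WT. The lowest library was again in KO, and 2 KO libraries exceeded all of WT. The fitted log2 difference was 0.10 (standard error 0.0727, edgeR unadjusted p = 0.200, exact permutation p = 0.251).

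Of the nonclassical heavy chains, H2-T23 had 201, 246 and 293 CPM in KO and 199, 218 and 304 CPM in WT, with its highest library in WT. The product of H2-T23 is a ligand of the NKG2 receptors of natural killer cells. Its log2 fold change was 0.10 (standard error 0.0995, edgeR unadjusted p = 0.341).

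H2-M3 had 41.4, 56.3 and 67.3 CPM in KO and 42.2, 49.3 and 64.5 CPM in WT. Here too the KO range enclosed the WT range. KO exceeded WT by 0.14 on the log2 scale (standard error 0.109, edgeR unadjusted p = 0.229).

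H2-Q7 had the largest fitted difference and the widest spread of the 10. Its values were 7.25, 25.1 and 75.5 CPM in KO and 9.08, 15.1 and 43.8 CPM in WT, a span of 10.4-fold within KO and of 4.83-fold within WT. A single library, KO replicate 3, stood above all WT libraries. The log2 fold change was 0.63 (standard error 0.436, edgeR unadjusted p = 0.167, exact permutation p = 0.301), with a 95% confidence interval from −0.30 to 1.56. Without KO replicate 3 it was 0.23, and without WT replicate 5 it was 0.96, so 1 library on either side moved it by more than 1.5 times.

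Of the transporter genes, Tap1 had 126, 174 and 224 CPM in KO and 135, 148 and 219 CPM in WT. Most KO libraries, 6 of 7, lay above the WT median, but a WT library, replicate 5, was second of all 14. Its log2 fold change was 0.19 (standard error 0.125, edgeR unadjusted p = 0.152, exact permutation p = 0.188).

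Tap2 kept within a narrow band, with 68.4, 81.8 and 88.0 CPM in KO and 70.3, 74.1 and 89.8 CPM in WT. No KO library exceeded the highest WT library. KO stood 0.09 higher on the log2 scale (standard error 0.0599, edgeR unadjusted p = 0.172).

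Tapbp varied least of all and was the member at an unadjusted p under 0.05. It had 392.2, 423 and 450 CPM in KO and 376, 400 and 425 CPM in WT, with 3 KO libraries above all of WT. The log2 fold change was 0.08 (standard error 0.0359, 95% confidence interval 0.0011 to 0.15, edgeR unadjusted p = 0.0473, adjusted p = 0.943). The exact permutation test gave p = 0.0536, so the call at this level depended on the test. With DESeq2 and the replicate block the member under 0.05 was instead Tap1 (unadjusted p = 0.0251), with Tapbp at 0.0611.

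Nlrc5, the class I transactivator, had 55.3, 73.7 and 98.2 CPM in KO and 58.8, 66.3 and 84.9 CPM in WT. The groups overlapped, again with the lowest and the highest library in KO. The log2 fold change was 0.12 (standard error 0.107, edgeR unadjusted p = 0.289).

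Leaving out 1 library moved the difference by more than 1.5 times for every member but Tapbp, and no member was called in any of these fits. Without KO replicate 3 the log2 fold change was 0.11 for H2-K1, 0.0875 for H2-D1, 0.0503 for B2m, 0.0512 for H2-T23, 0.0764 for H2-M3 and 0.0419 for Nlrc5. Without WT replicate 5 it was 0.29 for Tap1, 0.13 for Tap2, 0.18 for H2-T23 and 0.21 for H2-M3. Without KO replicate 5 it was 0.12 for Tap1 and 0.0537 for H2-T23, without WT replicate 6 it was 0.0640 for H2-T23, and without KO replicate 1 it was 0.18 for Nlrc5.

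**Figure D2:**
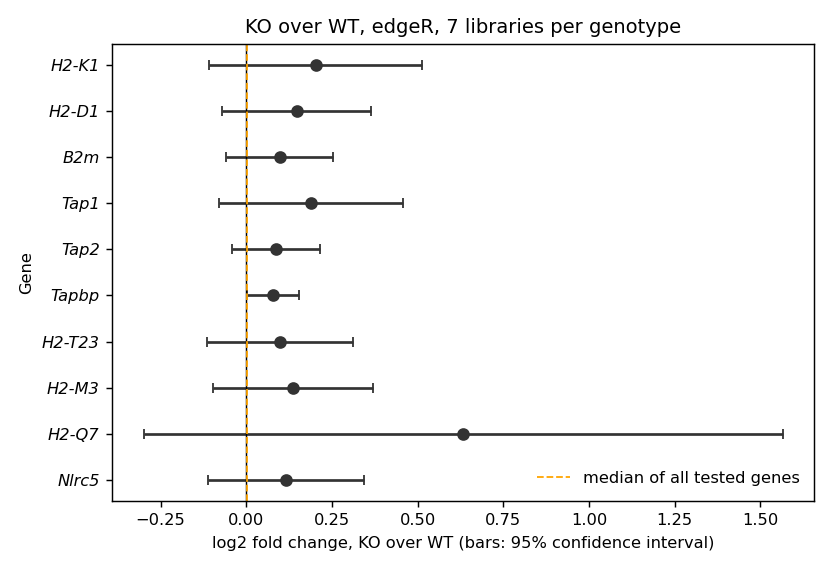
Log2 fold change of KO over WT for the 10 genes (horizontal axis) with 95% confidence intervals as bars, from edgeR on 7 libraries per genotype. All 10 estimates lie above 0, and the interval reaches 0 or below for every gene but Tapbp, whose lower bound is 0.0011.

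The parts of the complex kept their proportions between the genotypes as far as the spread could show. H2-K1 over H2-D1 in CPM was 0.575 in KO and 0.557 in WT (geometric means, exact permutation p = 0.437). The summed classical heavy chains over B2m came to 1.32 in KO and 1.26 in WT (exact permutation p = 0.242). Tap1 over Tap2 was 2.16 in KO and 2.01 in WT (exact permutation p = 0.231), and Tapbp over Tap1 plus Tap2 was 1.66 in KO and 1.75 in WT (exact permutation p = 0.404). After adjustment over the 4 ratios, each p was 0.437. A p of this size does not show that a ratio was the same in both, and Tap1 over Tap2 ran from 1.84 to 2.58 across libraries.

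The variation between libraries of one genotype was wider than the genotype difference for 9 of the 10 members. The difference amounted to 0.49 to 0.74 of the within-genotype SD on the log2 scale in those 9, and to 1.16 of it in Tapbp. That SD was 0.91 in H2-Q7, 0.30 in H2-K1, 0.26 in Tap1 and 0.07 in Tapbp. Over the 8499 genes with a mean of at least 10 CPM the median SD was 0.08. H2-Q7 thus varied more than 99.7% of these genes, H2-K1 more than 95.9%, Tap1 more than 94.3%, and H2-M3, Nlrc5, H2-D1 and H2-T23 more than 90.6% to 92.3%. B2m stood at 82.8%, Tap2 at 76.0% and Tapbp at 33.6%.

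The same libraries were high or low for nearly every member. KO replicate 3 was among the 3 highest of 14 for all 10 genes and the highest for 7. WT replicate 5 was among the 3 highest for 9 genes and the highest for Tap2 and H2-T23. At the other end, WT replicate 6 was among the 2 lowest for all 10 and KO replicate 1 among the 3 lowest for all 10, being last for 7. Each genotype thus held a library at the top and a library at the bottom of the class I levels.

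**Figure D3:**
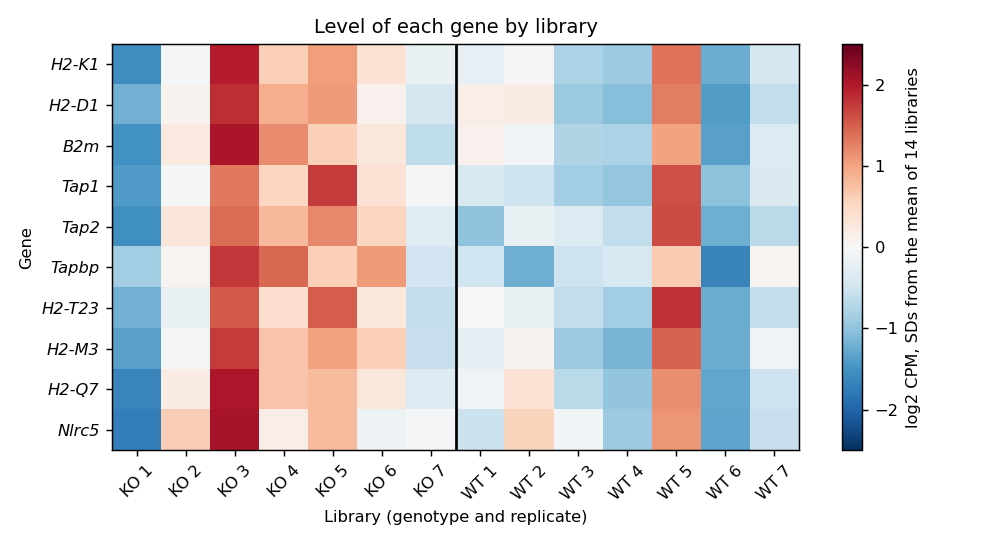
Log2 CPM of each gene (rows) in each library (columns, KO left of the line and WT right), in SDs from the mean of the 14 libraries, red high and blue low. Columns are close to uniform in color: KO 3, KO 5 and WT 5 are high and KO 1 and WT 6 are low for nearly all 10 genes.

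To describe this covariation, the genotype mean was taken out of each gene's log2 CPM and the members were correlated over the 14 libraries. All 45 pairs of members were positively correlated, with Pearson's r from 0.64 to 0.98 and a median of 0.91. By permutation of libraries within genotype, 45 of 45 passed an adjusted p under 0.05 for r (largest adjusted p = 0.0189) and 44 of 45 for Spearman's rho, which ran from 0.47 to 0.99. Without the 2 libraries farthest from the median, r was 0.38 to 0.98 with a median of 0.84, so the lowest pairs rested in part on those libraries. Within KO alone the median r was 0.94 and within WT alone 0.89. With all other tested genes, in contrast, the members' r had medians between −0.02 (Nlrc5) and 0.05 (Tap1), and between 0.663% (Tapbp) and 4.52% (Tap1) of those genes had an r over 0.8.

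The tightest pair was H2-K1 and H2-Q7 with r = 0.98 (rho 0.99, without the 2 farthest libraries 0.98), although H2-Q7 lies far below H2-K1 in level and has an SD of 0.91 against 0.30 on the log2 scale. The loosest was Tapbp and Nlrc5 with r = 0.64 (rho 0.47, without the 2 farthest libraries 0.38). H2-K1 and H2-D1 had an r of 0.97. The median r of a member with the other 9 was lowest for Tapbp, at 0.77, and 0.87 to 0.95 for the rest. The 5 genes with the promoter module, H2-K1, H2-D1, H2-Q7, H2-M3 and B2m, had r values of 0.95 to 0.98 among themselves, which is a description. H2-T23, whose window lacked the module but lay partly inside the gene, reached 0.96 with H2-K1. Tap1, whose window also lacked it, had r values of 0.94 with H2-K1, 0.93 with H2-M3 and 0.90 with H2-D1. With H2-Q7 and B2m, the r of Tap1 was 0.88 and 0.84. B2m and Nlrc5, which lie off chromosome 17, followed the MHC genes with median r values of 0.89 and 0.87.

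**Figure D4:**
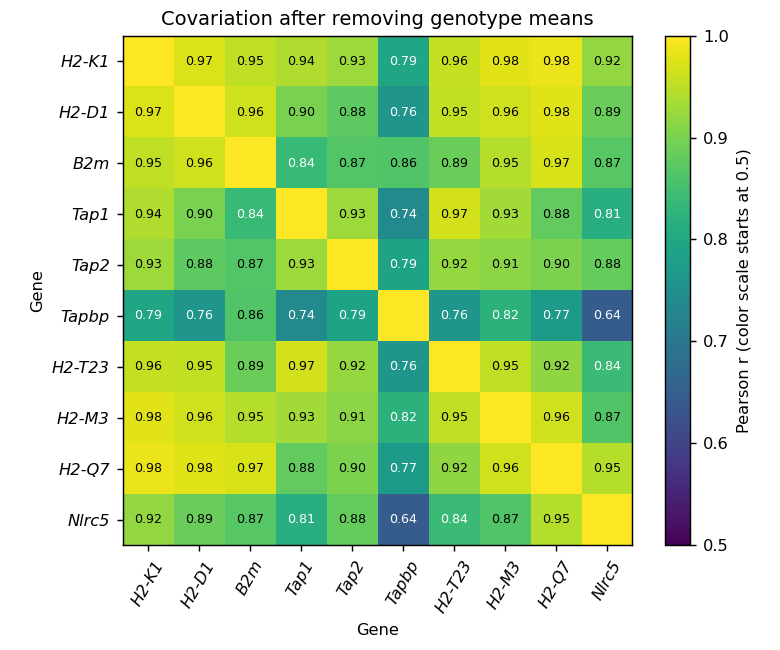
Pearson's r for each pair of the 10 genes over 14 libraries after the genotype means were removed, on a color scale that starts at 0.5. Values run from 0.64 for Tapbp with Nlrc5 to 0.98 for H2-K1 with H2-Q7, and the Tapbp row is the lowest.

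Of the tested genes outside the members, 190 of 15690 had an r over 0.9 with the mean standardised level of the 10. The 8 most alike were H2-Q5 (0.98), H2-Q4 (0.98), H2-T24 (0.98), Daxx (0.98), Ogfr (0.98), H2-Q6 (0.98), Gbp2 (0.97) and Arap1 (0.97), each over 14 libraries. Of them, 4 are further class I heavy chain genes of the same region, and Gbp2 is an interferon-induced GTPase. None was called between the genotypes (adjusted p of 0.943 to 0.946, edgeR), with log2 fold changes from 0.06 in Ogfr to 0.56 in H2-Q6. H2-Q6, at 8.70 to 70.2 CPM, spanned 8.07-fold over libraries, next to 10.4-fold in H2-Q7.

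Other genes of the pathway were read from lists, by their counts in the same test. Of 27 other class I and class I-like heavy chain genes listed, 24 were found by symbol, and H2-Q8, H2-Q9 and H2-T9 were not. The filter was passed by 11, of which 10 were higher in KO and 0 were called. Their median log2 fold change was 0.17. The smallest p of the list belonged to H2-T24 (63.7 ± 10.6 CPM in KO, 57.3 ± 8.67 in WT, SD, n = 7, edgeR unadjusted p = 0.183). H2-Q4 was at 132 ± 39.6 CPM in KO and 111 ± 26.3 CPM in WT, and H2-Q5 at 14.6 ± 6.25 and 11.2 ± 4.22 CPM. With the members' mean level, 6 of the 11 had an r over 0.9, namely H2-Q4, H2-Q5, H2-Q6, H2-T10, H2-T22 and H2-T24. Chosen after their values were seen, Mr1, which presents vitamin metabolites, had an r of −0.49 and Cd1d1, which presents lipids, one of −0.35.

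The immunoproteasome cuts peptides suited to class I molecules. All 5 genes of its list were higher in KO, 0 were called and the median log2 fold change was 0.07. Psmb9 had 44.4 ± 7.51 CPM in KO and 39.8 ± 6.71 CPM in WT (SD, n = 7, edgeR unadjusted p = 0.184), Psmb10 82.4 ± 6.10 and 78.6 ± 6.62 CPM, and Psmb8 129 ± 16.4 and 120 ± 13.9 CPM. Their r with the members' mean was 0.59 to 0.94 over the list.

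A further list was drawn up for peptide trimming and loading in the endoplasmic reticulum. Many of its genes are general chaperones, and Sppl2a is not a trimming or loading gene of that compartment. Of the 12 tested, 7 had a higher KO level, and the median log2 fold change was 0.0033. The r with the members' mean ran from −0.64 to 0.84, the latter in Sppl2a, with a median of 0.07. Tapbpl, a relative of tapasin, had 16.9 ± 1.43 CPM in KO and 15.7 ± 1.02 CPM in WT (SD, n = 7, edgeR unadjusted p = 0.0778). Sec61b was at 33.3 ± 1.19 and 33.9 ± 0.951 CPM, and Sppl2a at 281 ± 15.7 and 275 ± 13.9 CPM.

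Of 15 listed regulators of class I promoters, most of them transcription factors, 11 stood higher in KO and 0 were called. The median log2 fold change was 0.06. Nfyc, a subunit of the factor that binds the Y box, had 27.0 ± 1.03 CPM in KO and 25.8 ± 0.967 CPM in WT (SD, n = 7, edgeR unadjusted p = 0.0477, adjusted p = 0.943). Irf8 was at 449 ± 26.7 and 425 ± 24.3 CPM, and Rela at 133 ± 5.19 and 128 ± 4.82 CPM. By their r with the members' mean they fell from 0.96 to −0.64, with 3 of 15 over 0.8. Chosen after seeing the values, the highest was Irf2 and the lowest Nfya, a subunit of the Y-box factor.

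All 30 genes of the interferon signalling and response list were higher in KO, by 0.04 to 0.32 on the log2 scale with a median of 0.13, and 0 were called. Jak1, a kinase of the interferon receptors, had 285 ± 8.75 CPM in KO and 274 ± 5.45 CPM in WT (SD, n = 7, edgeR unadjusted p = 0.0353, adjusted p = 0.943). Jak2 was at 69.0 ± 4.16 and 65.6 ± 3.19 CPM, and Ifnar2 at 175 ± 14.9 and 165 ± 9.67 CPM. Of the 30, 17 had an r over 0.9 with the members' mean and the median r was 0.91, the lowest being −0.15. These genes share libraries with the members, so their common direction and the members' are not separate observations.

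Each member was also set against 4 measures of the library, giving 40 relations whose p were adjusted together. Total counts had r of 0.32 to 0.53 and passed for 0 of 10 members (adjusted permutation p of 0.123 and above), with raw r above 0 for all.

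Markers of other cells moved with the members too. The summed astrocyte markers, 30.04 to 137 CPM in KO and 34.1 to 260 CPM in WT, had negative r with all 10 members, from −0.82 in H2-M3 to −0.50 in Nlrc5, and 9 of 10 passed by r, Nlrc5 being the exception (adjusted permutation p = 0.123). Spearman's rho ran from −0.83 to −0.48 and passed for 7 of 10, not for Tap2, Tapbp and Nlrc5, and r without the 2 farthest libraries from −0.84 to −0.48. All 9 genes of that list were lower in KO, 0 were called and the median log2 fold change was −0.64, the smallest p belonging to S100b (1.13 ± 0.412 CPM in KO, 1.89 ± 0.692 in WT, SD, n = 7, edgeR unadjusted p = 0.0144). Slc1a2 and Gfap followed it. Negative r was not particular to astrocyte markers. With the members' mean level, the median r was −0.73 over the 9 astrocyte markers and −0.65 over the 7 tested oligodendrocyte lineage markers. It was −0.39 over the 8 neuron markers and −0.31 over the 3 tested fibroblast markers. The part of astrocyte content, or of these other cells, in the class I differences was not tested.

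The summed border macrophage markers, 368 to 629 CPM in KO and 327 to 707 CPM in WT, had positive r with all 10, from 0.51 in Tapbp to 0.89 in H2-T23, and 9 of 10 passed by r, Tapbp being the exception (adjusted permutation p = 0.123). Spearman's rho ran from 0.49 to 0.85 and passed for 7 of 10, not for Tap2, Tapbp and Nlrc5, and r without the 2 farthest libraries from 0.41 to 0.78. Nearly all of that sum was Mrc1, with a mean of 438 CPM, a gene that cultured microglia can also express. Pf4 was at 14.3 to 30.1 CPM, Cbr2 had a mean of 0.72 CPM and Cd163 one of 0.60 CPM. Lyve1 had at most 5 counts in any library. With the members' mean level, r was 0.79 for Mrc1, 0.78 for Pf4, 0.70 for Cbr2 and 0.45 for Cd163. The part of border macrophages in the class I differences was not tested. The summed microglia markers, 10996 to 13583 CPM in KO and 10628 to 12921 CPM in WT, passed with 0 of 10 members (r 0.26 to 0.59, smallest adjusted permutation p = 0.0904).

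**Figure D5:**
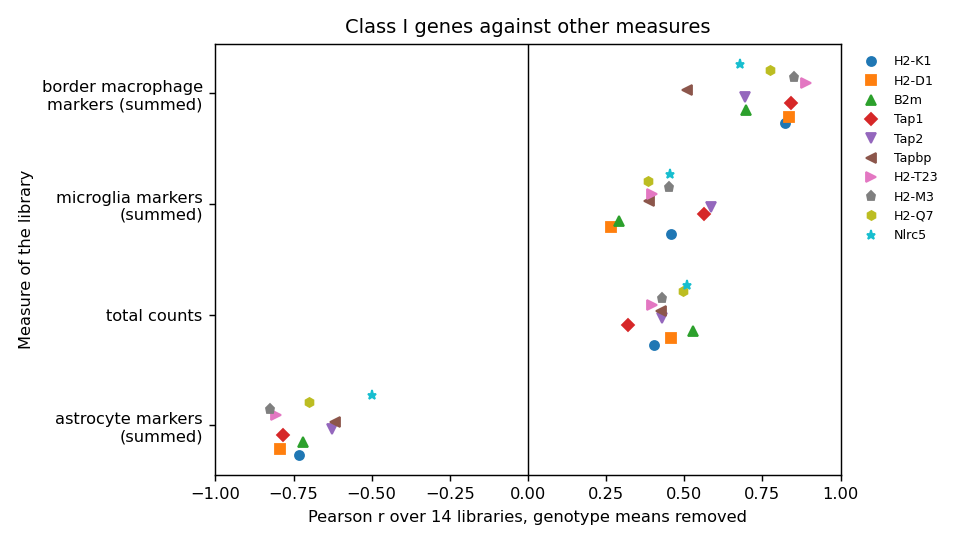
Pearson's r of each of the 10 genes (symbols) with 4 measures of the library (rows), over 14 libraries after the genotype means were removed. All 10 are below 0 for the astrocyte markers, down to −0.82 for H2-M3, and above 0 for the border macrophage markers, up to 0.89 for H2-T23.

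Other marker lists showed no called gene in edgeR. All 7 tested oligodendrocyte lineage markers were lower in KO (median log2 fold change −0.39), as were 7 of 8 neuron markers (−0.27), 3 of 3 fibroblast markers (−0.30) and 8 of 8 proliferation genes (−0.10). Endothelial and mural markers were higher for 3 of 6, border macrophage markers for 3 of 4 and microglia markers for 11 of 12, with a median of 0.04 in the last. The 2 tested neutrophil markers, S100a8 and S100a9, were higher in KO at 1.84 to 16.3 CPM in sum, against 0.35 to 10.9 CPM in WT.

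Reads of near-identical genes limit some members. Of all stretches of 150 bases, the read length, in the annotated H2-Q7 transcripts, 5.90% also occur in H2-Q10, H2-Q6 or H2-Q5. The share was 10.08% for Tapbp, all of it in Gm19412 on the other strand, and at most 1.35% for the other 8, with 0 in H2-K1, B2m, H2-M3 and Nlrc5. Exons of Tap1, Tap2 and Nlrc5 also overlap genes on the other strand, Psmb9 for Tap1, and those of Tapbp overlap Zbtb22 on the same strand. The strand setting of the counting is not given in the sources used here, so reads of such partners cannot be told apart, and the counts of H2-Q7 and Tapbp are the least certain of the 10.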

How the data were processed

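The authors mapped paired-end reads of poly(A) libraries to GRCm38 and deposited raw counts per Ensembl gene, 1 column per library, without normalization. The submitters' processing notes name Trimmomatic 0.36, STAR 2.5.2b and featureCounts of Subread 1.5.2, and the treatment of reads with several matches and the annotation release are not given in the sources used here. The paper modelled a batch, but the labels give none, so genotype alone was fitted. The labels give genotype and replicate number. The libraries are separate pools of pups.

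Gene names and positions were taken from GENCODE vM21, which matched 49056 of 49315 genes. For the test, edgeR 4.0.16 (R 4.3.3) was used: filterByExpr removed genes with low counts (minimum count 10, total 15), TMM set the scale, and KO was set against WT by the two-sided quasi-likelihood test with Benjamini-Hochberg adjustment over every tested gene and a threshold of 0.05. The comparison tool was DESeq2 1.42.0. Single values were compared two-sided by exact permutation over 3432 splits (smallest p 0.000583), and levels of neighbouring genes by exact sign flips (smallest p 0.0156). Correlations used log2 CPM (prior count 1) with 100000 permutations within genotype. Scripts were tested on simulated data. The members and all lists were chosen with earlier results of these data known. Named besides the members are up to 3 genes with the smallest p in each list, the 8 genes most like the members, and Timp2. The other genes named (marker genes, genes counted over an r of 0.9, and Mr1, Cd1d1, Irf2 and Nfya) were chosen after their values were seen. Other settings varied the scaling, the low-count filter, the tool, the replicate block, the prior count, the gene length and each library in turn. All columns were used. Some genes of the lists are not reported here by name. Statistics and motif searches ran in Python 3.11.15.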

Additional observations from a re-analysis of the deposited data

Results flagged for a closer look

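WT replicate 5 stood apart from the other 6 WT libraries in 5 of the 14 sets of WT values examined (10 genes and 4 ratios). The measure was the gap to its nearest neighbour as a share of the group's range, both on the log2 scale. None of the 14 KO sets had such a library. Chance alone gives this in about 1 in 20 such sets, and the members vary together, so these 5 are not separate events. The gap took 0.748 of the WT range for Tap1, where that library had 219 CPM against a WT median of 148 CPM. It took 0.637 for Tap2 (89.8 CPM against a median of 74.1 CPM) and 0.592 for H2-T23 (304 CPM against 218 CPM). Among the ratios, the gap took 0.609 for H2-K1 over H2-D1, for which the library had the highest WT value of 0.624. It took 0.663 for Tapbp over Tap1 plus Tap2, for which it had the lowest WT value of 1.38. On the log2 scale, no KO library stood apart in this way for a member or ratio. Gaps on the CPM scale differ from these and were not examined.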

How the results depend on the processing

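Each of the 10 members kept a log2 fold change above 0 in all 20 alternative settings, and 0 were called (smallest adjusted p = 0.684, edgeR without WT replicate 5). Their median log2 fold change ran from 0.0695 without KO replicate 3 to 0.19 without WT replicate 5 (all libraries 0.13). The number of members at an unadjusted p under 0.05 was 1 with all libraries, 0 with RLE size factors, 0 with upper-quartile factors and 0 without a filter on low counts. Leaving out 1 library gave 0 to 7, with 5 without KO replicate 1 and 7 without WT replicate 5. By exact permutation of single members, 0 of 10 had an unadjusted p under 0.05 with all libraries and 0 to 3 without 1 library, with 3 without WT replicate 5 and 1 each without KO replicate 1, KO replicate 7 and WT replicate 7. The cause was not tested. Of all tested genes, edgeR called 3, DESeq2 called 11 and DESeq2 with the replicate block called 27. The covarying pairs numbered 44 or 45 of 45 under every alternative tried.

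Replicate numbers are shared by KO and WT, but the labels tie no number to a batch or litter. Same-numbered libraries had a mean correlation of their deviations of 0.103 (lowest −0.196, highest 0.743; other pairs −0.0156), with 3 of 7 over 0.1, and 1 of 7 KO libraries matched its own number best, so the numbers were not taken as pairs. With the replicate block in edgeR, 3 genes were called, 0 members passed an unadjusted p under 0.05, the members' adjusted p was 0.792 to 0.796, and no other call changed.

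Depth does not limit the members, which had at least 284 counts in each library. The spread between cultures does, since the 95% confidence intervals reached 0.15 to 1.56 at their upper ends.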
